A study of Canis lupus familiaris and Dasypus novemcinctus and Ornithorhynchus anatinus with 3 samples.

Results

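The collagen genes were followed in messenger RNA of pregnant endometrium, the lining of the uterus, from dog (Canis lupus familiaris), armadillo and platypus. Members were all genes whose symbol was COL, a number, A and a number and that were listed in at least 2 of the 3 species' tables. This gave 34 genes of the 12474 symbols listed in at least 2 tables. Another 6 collagen symbols were listed in 1 table only. They were COL8A2, COL28A1 and COL29A1 in dog, with 7, 0 and 5 reads, COL2A1 and COL6A6 in armadillo, with 9 and 106 reads, and COL4A4 in platypus, with 0 reads. The labels give pregnant endometrium as the tissue of every library and state no stage of pregnancy, age, strain or number of animals. Dog and armadillo are placental mammals and platypus lays eggs. Each species had 1 library, so no difference has a replicate check, no p-value was computed, and every interval covers counting error only.

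Collagens are the main fibre-forming and sheet-forming proteins of the extracellular matrix. Each collagen molecule is a helix of alpha chains, made of the same chain repeated or of different chains, and each chain has its own gene. Fibrillar collagens (types I, II, III, V, XI, XXIV and XXVII) build the fibres of connective tissue, and type IV collagen builds the sheet under epithelia and around vessels and muscle cells. The FACIT collagens attach to the surface of fibres. In the endometrium, fibres are made mainly by stromal fibroblasts, and the matrix of the stroma is remodelled in pregnancy. The 34 genes comprised 8 fibrillar, 4 basement membrane, 10 FACIT and 12 other collagens.

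The dog table held 13625465 reads, that of armadillo 13218476 and that of platypus 2243556. The level of a gene is its CPM, its reads scaled to the library total, without correction for gene length. The limit that a count of 0 allows (3 reads) was 0.2202 CPM in dog, 0.227 CPM in armadillo and 1.34 CPM in platypus. In dog 21.8% and in platypus 42.4% of genes were listed at 0, whereas the armadillo table lists no gene without reads, so a gene missing there was not taken as 0. Of the 34 genes, 24 were listed by symbol in the dog table, 24 in that of armadillo, 29 in that of platypus, and 9 in all 3. In dog 5 of the listed genes and in platypus 6 were at 0. Levels of 5 CPM or more were reached by 13 members in dog, 17 in armadillo and 14 in platypus. The dog table names some genes otherwise: COL1A1, COL1A2 and COL4A5 stood under their UniProt entry names, and COL7A1 and COL2A1 under protein accessions. Dog values found in this way are given as such and were kept out of the counts of genes unless stated.

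Of the defining genes of the label, COL3A1 was present in every library, COL1A1 was abundant in dog (under its UniProt entry name) and armadillo and low in platypus, and COL11A1 was low or at 0 in every library. The uterine markers that were listed included ESR1, the oestrogen receptor, at 8.22 CPM in dog and 956 CPM in platypus, and HOXA10, a homeobox gene of the uterus, at 14.3 CPM in armadillo and 30.8 CPM in platypus. PGR, the progesterone receptor, was listed in platypus, at 291 CPM. The uterine markers listed in all 3 tables were low in dog and armadillo: FOXA2, a factor of uterine glands, had 0.661 CPM in dog, 1.29 CPM in armadillo and 57.5 CPM in platypus, and MSX1, a homeobox gene, had 3.16 CPM in dog, 2.42 CPM in armadillo and 643 CPM in platypus. In these bulk libraries fewer cells of a type, less RNA per cell and a difference in gene models between the species cannot be told apart.

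The collagen genes took the largest share of reads in armadillo. They held 0.206% of dog reads (exact 95% interval 0.204 to 0.209), 2.66% of armadillo reads (2.65 to 2.67) and 0.412% of platypus reads (0.404 to 0.421). With the dog genes under other names added, the dog share was 0.537% (0.534 to 0.541). These shares rest on different genes in each table. Over the 9 genes listed in all 3 tables the shares were 0.0873% in dog, 0.844% in armadillo and 0.0420% in platypus, so dog then stood above platypus. Fibrillar genes made up 65.1% of collagen reads in dog (85.6% with the other names), 55.7% in armadillo and 51.1% in platypus. Basement membrane genes made up 31.9% of collagen reads in armadillo and 3.08% in platypus, while in dog no basement membrane gene was listed by symbol.

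**Figure D1:**
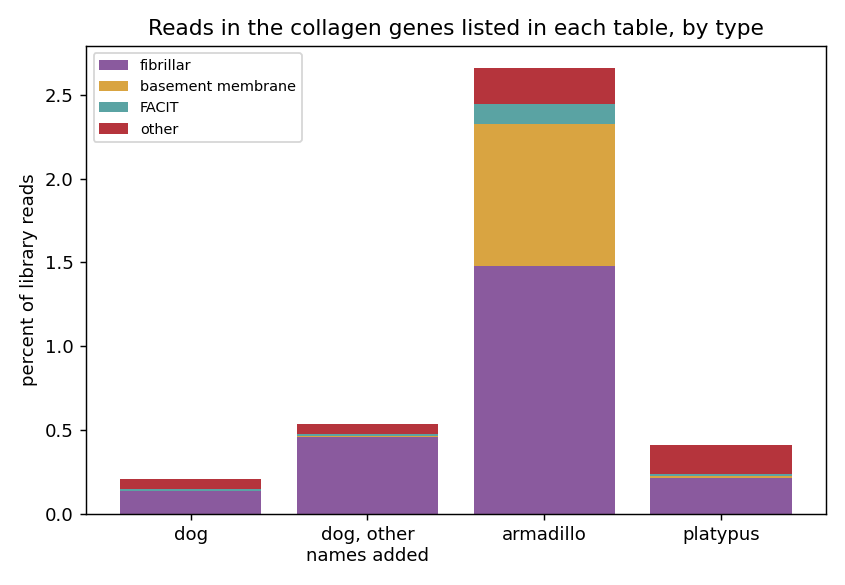
Percent of library reads in the collagen genes of each table, stacked by type, with 1 bar per library and a second bar for dog with the genes under other names added. Armadillo stands highest at 2.66%, and its basement membrane block is larger than that of platypus. For dog no COL4A1 or COL4A2 was found under the names searched, so its basement membrane block cannot be compared.

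Markers of the cell types that make collagen also differed between the libraries, and their part in the collagen differences was not tested. Of 8 stromal markers, 2 were listed in dog with a sum of 96.7 CPM, 7 in armadillo with 14342 CPM and 7 in platypus with 6699 CPM, where THY1 was at 0. Of 7 smooth muscle markers, 5 were listed in dog with a sum of 88.6 CPM, 4 in armadillo with 25124 CPM and 5 in platypus with 16579.9 CPM. Of 8 endothelial markers, 3 were listed in dog with a sum of 108 CPM, 6 in armadillo with 10114 CPM and 7 in platypus with 22.7 CPM, where VWF, PLVAP, KDR, TEK and ESAM were at 0. Most of the platypus sum was CDH5, at 20.1 CPM (45 reads), beside 31.0 CPM in dog. CDH5 was not listed by symbol in armadillo. Of 8 epithelial markers, 4 were listed in dog with a sum of 2746 CPM, 5 in armadillo with 837 CPM and 5 in platypus with 8.91 CPM, where ST14 was at 0. Of 6 leukocyte markers, 4 were listed in dog with a sum of 14.7 CPM, 5 in armadillo with 242 CPM and 1 in platypus with 0.446 CPM. Of 6 trophoblast markers, 3 were listed in dog with a sum of 2203 CPM, 3 in armadillo with 583 CPM and 4 in platypus with 3.12 CPM, where TFAP2C and GCM1 were at 0.

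These sums rest on different genes in each table, and over the markers listed in all 3 tables some orders changed. The 2 stromal markers LUM and POSTN summed to 96.7 CPM in dog, 1095 CPM in armadillo and 1258 CPM in platypus, so armadillo was then not the highest library. The 1 shared smooth muscle marker, MYH11, had 1.61 CPM in dog, 10803 CPM in armadillo and 277 CPM in platypus, whereas ACTA2, not listed by symbol in dog, ran the other way with 161 CPM in armadillo and 11301 CPM in platypus. The 2 endothelial markers PLVAP and ESAM summed to 77.1 CPM in dog and 7713 CPM in armadillo and were at 0 in platypus. The 3 epithelial markers EPCAM, KRT7 and ST14 summed to 2541 CPM in dog, 550.4 CPM in armadillo and 2.67 CPM in platypus. KRT7 alone had 2185 CPM in dog, 538 CPM in armadillo and 2.23 CPM in platypus, and it is on both the epithelial and the trophoblast list. TFAP2C, the other trophoblast marker in all 3 tables, had 2.13 CPM in dog and 45.2 CPM in armadillo and was at 0 in platypus.

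Among the fibrillar genes, the chains of types I and III stood high in armadillo. COL3A1, the chain of type III collagen, which forms the thin fibres of soft tissue, had 535 CPM in dog (95% interval 523 to 548), 7623 CPM in armadillo (7576 to 7670) and 294 CPM in platypus (272 to 318). Armadillo was highest for this gene and dog and platypus were closer to each other. COL1A2, the alpha 2 chain of type I collagen, had 592 CPM in dog under its UniProt entry name, 4782 CPM in armadillo and 1568 CPM in platypus. COL1A1, the alpha 1 chain of the same molecule, had 2668 CPM in dog under its UniProt entry name, 1895 CPM in armadillo and 7.58 CPM (17 reads) in platypus. Dog and armadillo were thus of one order for COL1A1, while for COL1A2 dog was the lowest library.

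Type V collagen regulates the width of type I fibres. COL5A1, which encodes its most common chain, had 126 CPM in dog and 226 CPM in platypus (its armadillo value is not analysed here). COL5A2, the usual partner of that chain, had 142 CPM in dog and 511 CPM in armadillo. COL5A3, a less widespread chain of the type, had 540 CPM in dog and 3.12 CPM (7 reads) in platypus. Dog was therefore below the other library for COL5A1 and COL5A2 and above platypus for COL5A3. COL11A1, a fibrillar chain best known from cartilage, was listed at 0 in dog and had 0.227 CPM (3 reads) in armadillo and 8.91 CPM (20 reads) in platypus. COL24A1 had 0.881 CPM (12 reads) in dog and 3.25 CPM (43 reads) in armadillo.

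Basement membrane chains were compared mainly between armadillo and platypus. COL4A1 and COL4A2 encode the chains of the common type IV network, and COL4A5 and COL4A6 those of networks found in fewer basement membranes, smooth muscle among them. COL4A1 had 3815 CPM in armadillo (95% interval 3782 to 3849) and 74.0 CPM in platypus (63.2 to 86.1). COL4A2 had 4545 CPM in armadillo (4508 to 4581) and 12.9 CPM in platypus (8.66 to 18.6). COL4A5 had 12.04 CPM in dog under its UniProt entry name, 88.0 CPM in armadillo and 1.34 CPM (3 reads) in platypus. COL4A6 had 26.1 CPM (23.4 to 29.0) in armadillo and 38.8 CPM (31.1 to 47.8) in platypus, and was the only type IV gene of these 4 that was not lower in platypus than in armadillo. The stromal, smooth muscle, endothelial, epithelial, leukocyte and trophoblast marker sums given above were all higher in armadillo than in platypus, as were COL4A1 and COL4A2. Over the shared markers the stromal sum was not. The sums rest on different genes in each table, and no leukocyte marker was listed in all 3. Within the stromal and smooth muscle lists DCN, LUM and ACTA2 were lower in armadillo than in platypus. The part of any cell type in the COL4A1 and COL4A2 values was not tested.

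Of the FACIT genes, 4 reached 5 CPM in any library. COL12A1, which binds type I fibres, had 94.97 CPM in dog and 523 CPM in armadillo. COL14A1, its close relative, had 11.9 CPM in dog, 334 CPM in armadillo and 111 CPM in platypus. COL21A1, described in vessel walls and other tissues, had 2.72 CPM in dog, 300.3 CPM in armadillo and 2.67 CPM (6 reads) in platypus. COL16A1 had 19.2 CPM in dog and 37.4 CPM in armadillo. Armadillo was the highest library for each of these genes. The remaining 6 genes, COL9A1, COL9A2, COL9A3, COL19A1, COL20A1 and COL22A1, lay between 0 and 3.57 CPM wherever they were listed. The type IX chains and their relatives are known mostly from cartilage and other specialised tissues.

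Type VI collagen forms beaded filaments near cells. Its COL6A1 chain had 123 CPM in dog and 467 CPM in platypus, its COL6A2 chain had 76.6 CPM in dog and 70.4 CPM in platypus, and its COL6A3 chain had 1780 CPM in armadillo and 991 CPM in platypus. COL15A1, which links basement membranes to the fibres around them, had 156 CPM in dog, 172 CPM in armadillo and 0.446 CPM (1 read) in platypus. COL18A1, its relative and the precursor of endostatin, had 57.8 CPM in dog and 204.6 CPM in platypus. The pair therefore stood in opposite order between dog and platypus.

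Anchoring and membrane-bound collagens stood high in dog in part. COL17A1, the collagen of hemidesmosomes that fix epithelial cells to the basement membrane, had 167 CPM in dog (95% interval 160.5 to 174), 1.74 CPM (23 reads) in armadillo and 0 reads in platypus. COL7A1, the anchoring fibril chain, had 39.0 CPM in dog under its accession, 13.2 CPM in armadillo and 0.446 CPM (1 read) in platypus. Both genes stood in the same order of libraries as the epithelial and the trophoblast marker sums given above, both made up mostly of KRT7 in dog and armadillo, and the part of either cell type was not tested. COL13A1 had 1.03 CPM in dog and 21.3 CPM in armadillo, and COL23A1 had 9.39 CPM in dog and 31.2 CPM in platypus. These membrane collagens therefore did not follow COL17A1. COL8A1, a network collagen of vessels and of the cornea, had 122 CPM in armadillo and was listed at 0 in platypus. COL10A1, the hypertrophic cartilage chain, had 0.530 CPM (7 reads) in armadillo and was listed at 0 in platypus, and COL25A1 did not exceed 1 read in any library.

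**Figure D2:**
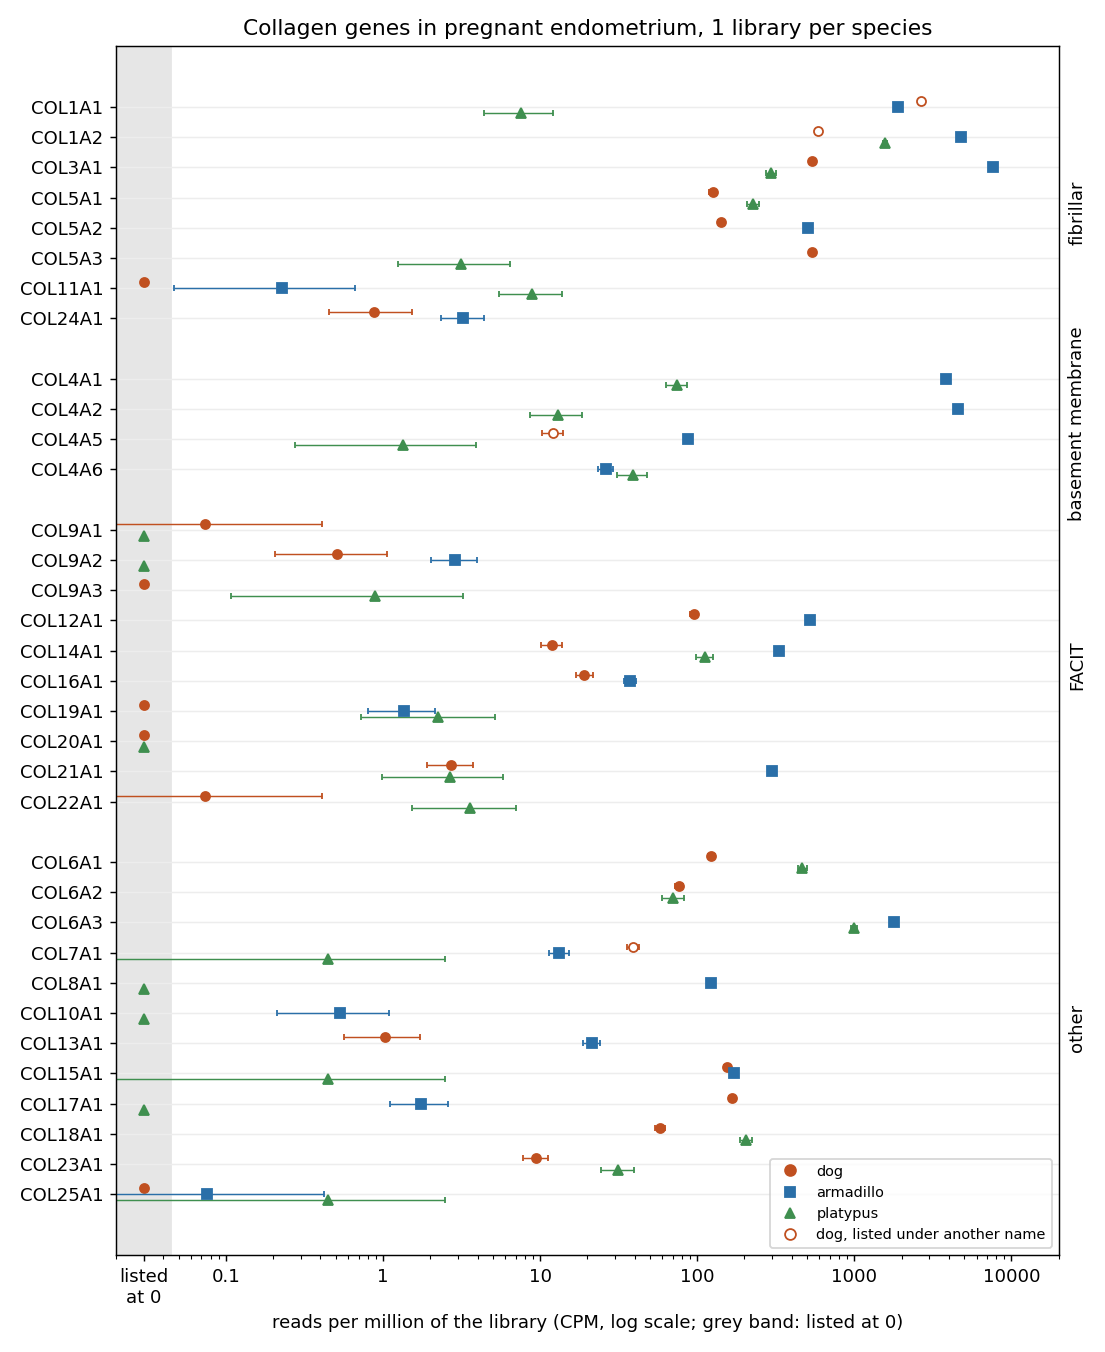
CPM on a log scale for the 34 collagen genes, grouped by type, in dog (circles), armadillo (squares) and platypus (triangles), with exact 95% counting intervals; open circles are dog genes listed under another name, and the grey band holds genes listed at 0. Armadillo values lie furthest right for COL3A1, COL1A2, COL14A1 and COL21A1, and dog lies furthest right for COL17A1.

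To compare genes with each other within a library a value per length is needed, and this was possible for dog. The relative abundance that the authors deposited for dog is proportional to reads divided by a gene length, and gave lengths within 0.1 bases of whole numbers for 100% of 5644 genes above 500 reads. On that scale COL1A1 was the first of the collagens in dog at 347, followed by COL3A1 at 120, COL1A2 at 81.7 and COL5A3 at 61.3. COL6A2 followed at 37.8 and COL6A1 at 27.4, then COL15A1 at 23.6 and COL17A1 at 23.3. The other 15 members with reads lay below 20, led by COL5A2 at 19.8. Per length COL6A2 was above COL6A1, whereas in reads it was below it, because the gene model of COL6A2 was 1251 bases long and that of COL6A1 2781 bases. The COL3A1 model had 2744 bases against 4467 for COL1A2 and 4738 for COL1A1, so that the CPM of COL3A1 understates it relative to them.

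Dog against armadillo, which asks how these placental species differed, was compared over 14 collagen genes listed by symbol in both tables. The limits for a difference were a fold of 4 on the log2(CPM + 1) scale and 5 CPM in the higher library. By these limits 1 collagen gene was higher in dog and 5 were lower. That is 7.14% of the 14, where 12.6% of all 8854 genes listed in both tables were higher in dog, and 35.7% of them, where 13.2% of all genes were lower. The median log2 fold of dog over armadillo was -1.30 for the collagens and 0.00 for all genes. COL17A1 was the gene higher in dog, by 96.1-fold (95% interval 63.9 to 152). Of the genes lower in dog, COL3A1 differed by 14.2-fold (13.9 to 14.6), COL12A1 by 5.50-fold (5.18 to 5.84), COL13A1 by 20.7-fold (12.1 to 38.3), COL14A1 by 28.1-fold (24.0 to 33.1) and COL21A1 by 110.6-fold (80.1 to 157).

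By type, 0 of 4 fibrillar genes were higher in dog and 1 lower, 0 of 6 FACIT genes higher and 3 lower, and 1 of 4 other genes higher and 1 lower. COL15A1 differed little, at 1.11-fold (1.04 to 1.18) lower in dog. COL5A2, at 3.61-fold (3.43 to 3.80) lower in dog, missed the limit and passed it with median-of-ratios scaling. Of the dog genes under other names, COL1A2 was 8.08-fold (7.90 to 8.27) lower in dog and COL4A5 7.31-fold (6.20 to 8.66) lower. COL1A1 was 1.41-fold (1.39 to 1.43) higher in dog and COL7A1 2.94-fold (2.48 to 3.51) higher, both within the limit. With these names 1 of 19 genes was higher in dog and 7 were lower, beside 12.6% and 13.2% of all genes. Only collagens were added under other names, so these shares still leave out other dog genes named in that way. The 19 genes, and the fibrillar sum with these names, include COL2A1 (11 reads in dog and 9 in armadillo), which is not a member. The summed fibrillar CPM over the genes listed by symbol in both tables was 678 in dog and 8137 in armadillo, a log2 ratio of -3.59. With the other names it was 3938 in dog and 14816 in armadillo, a log2 ratio of -1.91, so the size of this difference depends on whether the type I chains are counted. The summed FACIT CPM was 129 in dog and 1198 in armadillo, and that of the other collagens 324 in dog and 195 in armadillo.

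Dog against platypus set a placental mammal beside an egg-laying one over 19 collagen genes. By the same limits 3 were higher in dog (15.8%, where 32.0% of 9026 genes were) and 2 were lower (10.53%, where 9.93% of all genes were). The collagens had a median log2 fold of -0.53 (dog over platypus) and all genes one of 0.61. For collagens listed by symbol, the share called higher in dog was thus below that of all genes. With the dog genes under other names added it was nearer, at 26.1% beside 32.0%. COL9A1, COL9A2, COL9A3, COL19A1, COL20A1, COL21A1, COL22A1 and COL25A1 were below the CPM limit in both libraries and could not be called. Whether such low genes were as common among all genes was not tested. COL5A3 was 173-fold (83.9 to 431) higher in dog. COL15A1 was 349-fold higher, with an interval of 62.6 to 13788 because platypus had 1 read. COL17A1 was 125-fold higher in dog when platypus was set at the 3 reads that a count of 0 allows. COL14A1 was 9.37-fold (7.66 to 11.5) lower in dog. COL11A1, listed at 0 in dog, was 40.5-fold lower there when dog was set at 3 reads. These values for COL17A1 and COL11A1 leave out the counting error of the higher library. For COL11A1 in platypus that interval was 5.45 to 13.8 CPM, on 20 reads.

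COL6A1 was 3.79-fold (3.50 to 4.09) lower in dog, COL18A1 3.54-fold (3.15 to 3.97) and COL23A1 3.32-fold (2.45 to 4.48). None of these passed the limit on the CPM scale. With median-of-ratios or upper-quartile scaling all of them did, and 3 collagens were then higher in dog and 5 lower. Of all genes, 27.3% were then higher in dog and 13.5% lower with the first scaling, and 28.3% and 12.6% with the second. COL3A1 was 1.82-fold (1.68 to 1.97) higher in dog, COL5A1 1.80-fold (1.62 to 1.99) lower and COL6A2 1.09-fold (0.9196 to 1.29) higher, an interval that includes no difference. Of the dog genes under other names, COL1A1 was 352-fold (219.9 to 604) higher in dog, COL4A5 9.001-fold (3.03 to 44.1) higher and COL7A1 87.4-fold (15.6 to 3460) higher, while COL1A2 was 2.65-fold (2.55 to 2.76) lower. With them 6 of 23 genes were higher in dog (26.1%, against a background of 32.0%) and 2 lower (8.70%, against 9.92%). Of the dog genes under other names, this background too holds only collagens.

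Armadillo against platypus was compared over 19 collagen genes, of which 9 were higher in armadillo and 1 was lower. These are 47.4%, where 36.1% of 7296 genes were higher in armadillo, and 5.26%, where 11.0% were lower. The collagens had a median log2 fold of 1.95 (armadillo over platypus) and all genes one of 1.06. All of COL4A1, COL4A2 and COL4A5 passed the limit, at 51.6-fold (44.3 to 60.4), 352-fold (245 to 525) and 65.8-fold (22.5 to 319.5), the last on 3 platypus reads. Summed over the 4 basement membrane genes, armadillo had 8474 CPM and platypus 127 CPM, a ratio of 66.7-fold (59.4 to 75.2). COL1A1 was 250.2-fold (156 to 429) higher in armadillo and COL3A1 25.9-fold (24.0 to 28.0) higher, while COL1A2 was 3.05-fold (2.95 to 3.16) higher and did not pass the limit.

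COL21A1 was 112-fold (51.5 to 306) higher in armadillo. COL15A1 was 386-fold (69.3 to 15272) and COL7A1 29.7-fold (5.26 to 1180) higher, each on 1 platypus read. COL8A1, listed at 0 in platypus, was 91.0-fold higher when platypus was set at 3 reads, leaving out the counting error in armadillo. COL11A1 was 39.3-fold (11.6 to 206) lower in armadillo, on 3 armadillo reads and 20 platypus reads. COL6A3 was 1.80-fold (1.72 to 1.88) higher, COL14A1 2.998-fold (2.64 to 3.42) higher and COL4A6 1.49-fold (1.16 to 1.88) lower, all within the limit. The 3 comparisons share libraries, each library entering 2 of them, so their counts are not independent of each other.

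**Figure D3:**
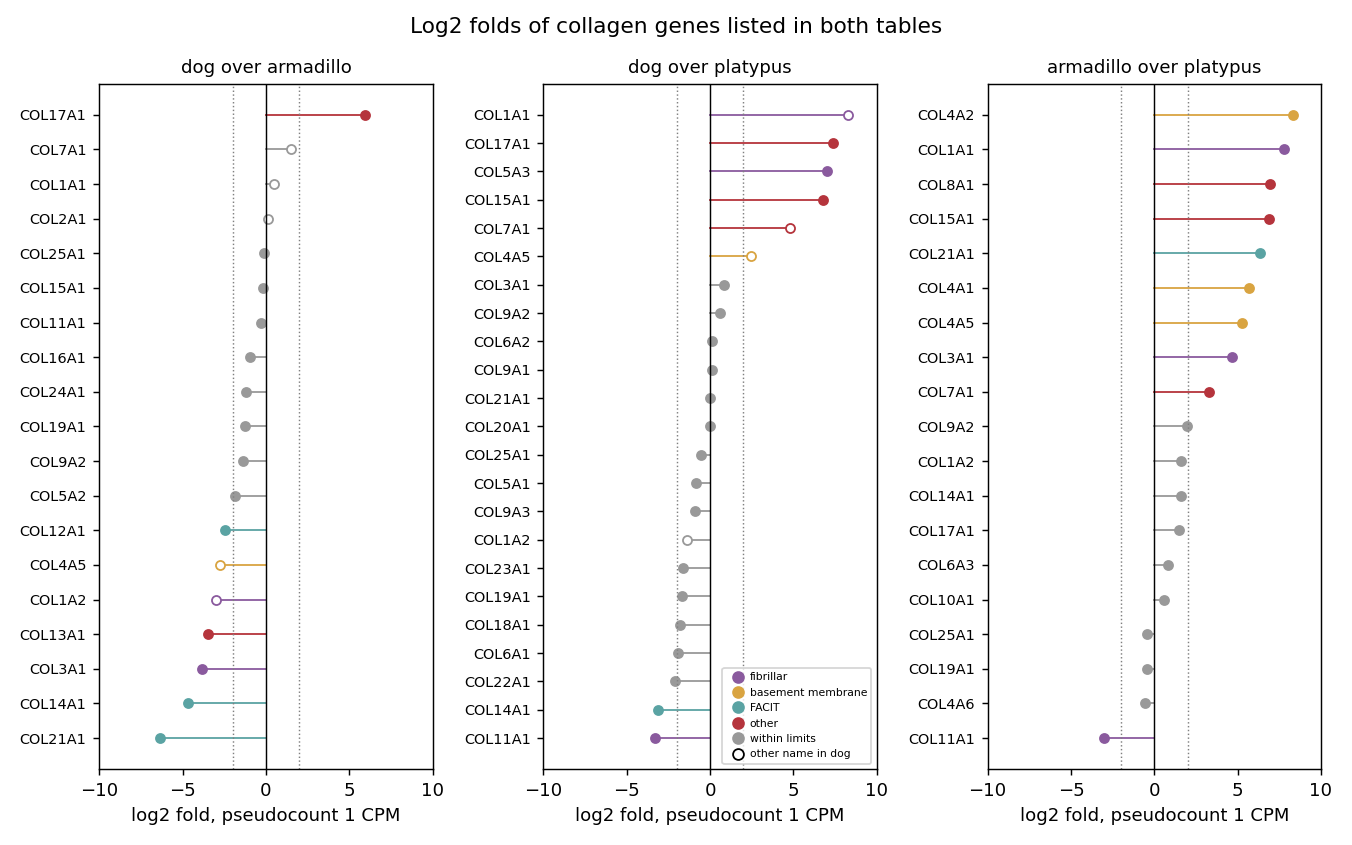
Log2 folds with a pseudocount of 1 CPM for the collagen genes listed in both tables of each pair (dog over armadillo, dog over platypus, armadillo over platypus), coloured by type where the gene passed both limits and grey where it did not; dotted lines mark the 4-fold limit and open circles dog genes under another name. In the armadillo over platypus panel 9 genes lie beyond the right line and COL11A1 beyond the left.

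Chains that assemble into the same molecule did not keep the same ratio of reads across species. The ratio of COL1A1 to COL1A2 reads was 4.51 (95% interval 4.40 to 4.62) in dog under the UniProt entry names, 0.396 (0.391 to 0.402) in armadillo and 0.00483 (0.00281 to 0.00775) in platypus. Per length the dog ratio was 4.25. In platypus the partner chain thus had 3519 reads beside 17 of COL1A1. The ratio of COL4A1 to COL4A2 was 0.840 (0.830 to 0.850) in armadillo and 5.72 (3.84 to 8.81) in platypus. The ratio of COL4A5 to COL4A6 was 3.37 (2.99 to 3.81) in armadillo and 0.0345 (0.00698 to 0.104) in platypus, so their order turned round. The ratio of COL6A1 to COL6A2 was 1.61 (1.49 to 1.74) in dog and 6.63 (5.61 to 7.89) in platypus. Per length the dog ratio was 0.724, so the order of these chains in dog turned round. That of COL5A1 to COL5A3 was 0.232 (0.2204 to 0.245) in dog and 72.3 (34.8 to 181) in platypus, and 0.231 per length in dog. Gene model lengths were not at hand for armadillo and platypus, so their part in these ratios was not tested.

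Several of these chains are neighbours in the genome. In the dog RefSeq gene table (assembly UU_Cfam_GSD_1.0, used for gene order only) 7 pairs of collagen genes were adjacent protein-coding genes, among them COL4A1 with COL4A2, COL4A5 with COL4A6, COL6A1 with COL6A2 and COL3A1 with COL5A2. The ratio of COL5A2 to COL3A1 reads was 0.265 (0.251 to 0.278) in dog and 0.0670 (0.0654 to 0.0687) in armadillo. Per length the dog ratio was 0.165. Thus the neighbours that could be compared between libraries also changed their ratio of reads, and the part of gene model length was not tested.

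**Figure D4:**
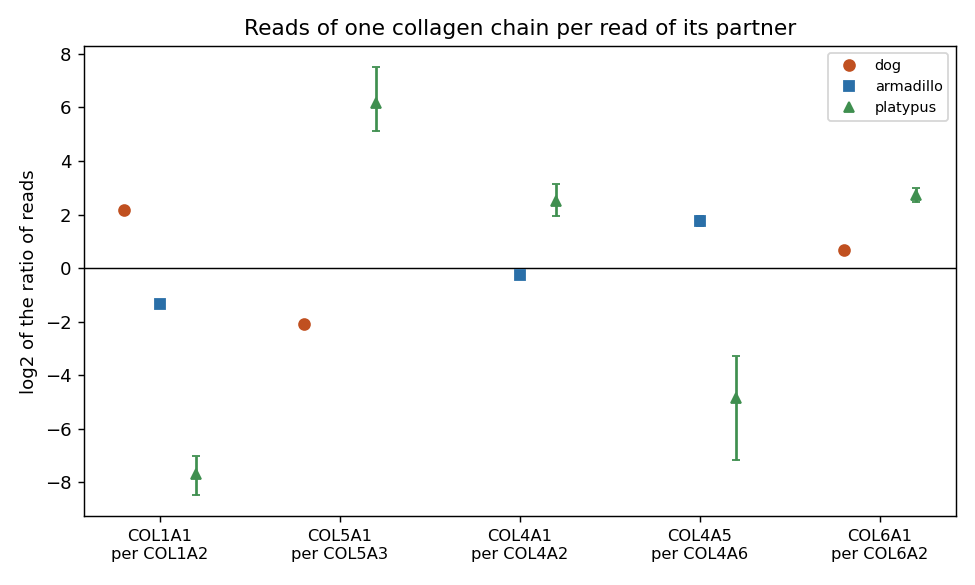
Log2 of the ratio of reads of a collagen chain to those of its partner, for 5 pairs, in dog (circles), armadillo (squares) and platypus (triangles), with exact 95% counting intervals; lengths of the gene models are not corrected for. The platypus point is lowest for COL4A5 per COL4A6 and for COL1A1 per COL1A2, and highest for the other pairs.

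Enzymes and chaperones modify and fold collagen chains in the endoplasmic reticulum. Of 12 genes of this list in both the dog and the armadillo table, 0 were higher in dog and 2 lower, the hydroxylase subunit gene P4HA3 and the galactosyltransferase gene GLT25D2, beside 12.6% and 13.2% of all genes. SERPINH1, the chaperone HSP47 that binds collagen in the endoplasmic reticulum, had 309 CPM in dog, 1176 CPM in armadillo and 629 CPM in platypus, none of these differences passing the limit on the CPM scale. With either other scaling SERPINH1 passed it as lower in dog than in armadillo, and 3 genes of the list were then lower in dog. Of all genes, 15.2% (median-of-ratios) and 13.9% (upper-quartile) were then lower in dog. Against platypus, 4 of 12 were higher in dog and 2, PPIB and GLT25D2, lower, beside 32.0% and 9.93% of all genes. In armadillo 6 of 12 were higher than in platypus and 1, PPIB, lower, beside 36.1% and 11.0% of all genes. P4HB, the beta subunit of prolyl 4-hydroxylase, had 1656 CPM in dog, 1249.7 CPM in armadillo and 22.7 CPM in platypus. PLOD3, a lysyl hydroxylase, had 148 CPM in dog, 121 CPM in armadillo and 0.446 CPM (1 read) in platypus. P4HA2, a catalytic subunit of prolyl 4-hydroxylase, had 100.1 CPM in dog, 120.1 CPM in armadillo and 13.8 CPM in platypus. FKBP10, a prolyl isomerase of procollagen, had 67.1 CPM in dog and 139.5 CPM in armadillo and was listed at 0 in platypus. PPIB, the isomerase cyclophilin B, ran the other way, with 752 CPM in dog, 1048 CPM in armadillo and 4660 CPM in platypus.

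Other enzymes cut the propeptides off secreted collagen and cross-link it. Of 10 such genes in both the dog and the armadillo table, 0 were higher in dog and 6 lower, beside 12.6% and 13.2% of all genes, and the median log2 fold of dog over armadillo was -3.68, beside 0.00 for all genes. ADAMTS2, which removes the amino-terminal propeptide of fibrillar collagens, had 27.2 CPM in dog, 1039 CPM in armadillo and 258 CPM in platypus. Dog was lowest, by 38.3-fold (34.5 to 42.5) against armadillo and 9.49-fold (8.31 to 10.8) against platypus. ADAMTS3, its relative, had 0.661 CPM in dog, 31.6 CPM in armadillo and 0.891 CPM (2 reads) in platypus, and TLL1, a carboxyl-terminal propeptidase, had 0.661 CPM in dog, 31.8 CPM in armadillo and 0.446 CPM (1 read) in platypus. LOXL2, a lysyl oxidase that cross-links collagen, had 72.1 CPM in dog and 737 CPM in armadillo, 10.2-fold (9.56 to 10.9) lower in dog, and LOX itself had 48.8 CPM in dog and 69.1 CPM in armadillo. TLL2, a relative of TLL1, had 1.69 CPM in dog and 0.530 CPM in armadillo, 3.19-fold (1.32 to 8.80) higher in dog and below the limits, and was listed at 0 in platypus. Against platypus 0 of 6 genes of this list were higher in dog and 2, ADAMTS2 and ADAMTS14, lower, beside 32.0% and 9.93% of all genes. In armadillo 3 of 5, ADAMTS2, ADAMTS3 and TLL1, were higher than in platypus and 0 lower, beside 36.1% and 11.0%. ADAMTS2 did not pass in that pair with either other scaling.

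Of the collagen receptors 5 were listed in both dog and armadillo, of which 1 was higher in dog and 0 were lower, beside 12.6% and 13.2% of all genes. These calls depended on the scaling, an alternative applied to the lists after the data were seen. With median-of-ratios scaling 0 were higher in dog and 2, ITGA1 and ITGB1, lower, beside 9.76% and 15.2% of all genes. With upper-quartile scaling 1 was higher and the same 2 lower, beside 11.3% and 13.9%. ITGA2, the integrin chain for fibrillar collagen on epithelia and platelets, had 51.8 CPM in dog and 9.68 CPM in armadillo, 5.35-fold (4.43 to 6.51) higher in dog. ITGA1, the integrin chain that prefers type IV collagen and is found on smooth muscle, had 147 CPM in dog and 563 CPM in armadillo. Their common partner ITGB1 had 303 CPM in dog, 1153 CPM in armadillo and 212 CPM in platypus. MRC2, an endocytic receptor that takes up cleaved collagen, had 176 CPM in dog and 247 CPM in armadillo. Against platypus 1 of 2 receptors was higher in dog and 0 lower, DDR2 at 8.88 CPM in dog against 0.446 CPM (1 read) in platypus, beside 32.0% and 9.93% of all genes. In armadillo 2 of 2, ITGA11 and ITGB1, were higher than in platypus, beside 36.1% of all genes. Counts over so few receptors cannot be set against these shares.

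**Figure D5:**
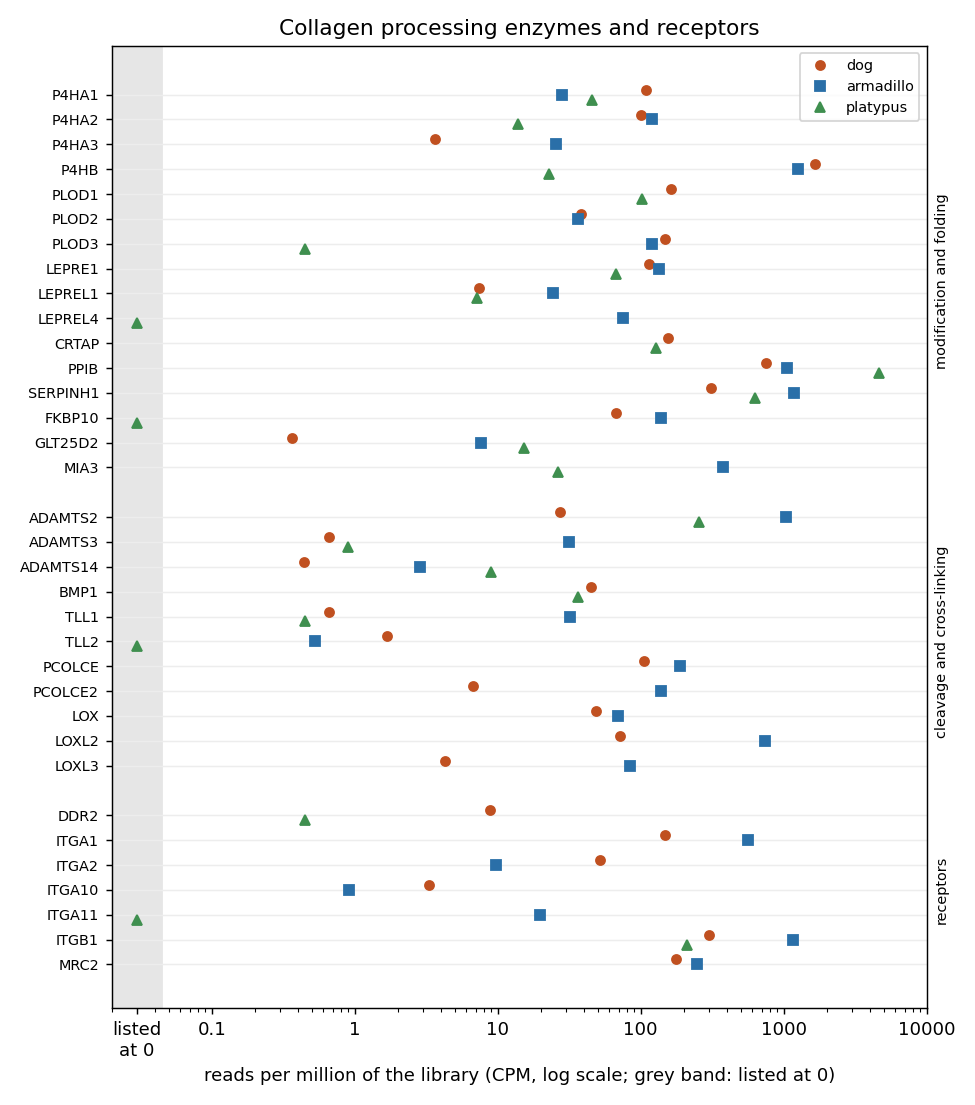
CPM on a log scale of the genes for modification and folding, cleavage and cross-linking, and receptors that were listed in at least 2 tables, in dog (circles), armadillo (squares) and platypus (triangles); the grey band holds genes listed at 0. ADAMTS2, LOXL2 and LOXL3 lie further right in armadillo than in dog, and PPIB lies furthest right in platypus.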

How the data were processed

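Messenger RNA sequencing of pregnant endometrium was available as 1 library each of dog, armadillo and platypus. Per the labels' protocols, RNA came from Qiagen columns, was treated with DNase and went into standard Illumina libraries. Bowtie is named in the submitters' processing notes. Its version, the genome builds and the annotation were not given in the sources used. Per the file headers, the dog values deposited are estimated counts per gene. They equal the mapped bases divided by 34 within 0.01 reads, so 516 are not whole, and were rounded. The dog table also holds mapped bases and a relative abundance, treated as deposited scores. The deposited armadillo and platypus values are raw counts of reads, per the file headers. The last line of the dog and armadillo tables holds totals and was left out.

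Symbols occurring once per table were matched in upper case. Of 1347 dog genes named by accession, 82 were matched to a symbol in the dog RefSeq table, and only the collagens among them were used. Counts were divided by the sum over listed genes and scaled to CPM. Ratios carry exact 95% intervals conditional on the summed reads, levels exact Poisson and shares exact (Clopper-Pearson) intervals. Without molecular identifiers, reads are not independent molecules. Folds between species also hold any difference in gene model length. Alternatives were 2 scalings, a pseudocount of 0.1 CPM, other filters, a 2-fold limit and added names, and, chosen after seeing the data, the 2 scalings for the gene lists. Every member is accounted for, and genes past the limits are named. From the lists of collagen enzymes and receptors, those past the limits in 2 pairs were named first, and SERPINH1, LOX, LOXL2, TLL2, ITGA1, ITGA2, DDR2, ITGA11 and MRC2 were added after their values were seen. The calling rule was run on simulated Poisson counts. These hold no spread between animals and no difference in gene models, so they cannot show how the rule does across species with 1 library each. Python 3.11.15, numpy 2.4.6, scipy 1.17.1 and pandas 2.3.3 were used. The members, lists and limits were chosen with earlier results of these data known.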

Additional observations from a re-analysis of the deposited data

How the results depend on the processing

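Median-of-ratios scaling shifts log2 ratios of CPM, taken without a pseudocount, by -0.32 (dog over armadillo), -0.59 (dog over platypus) and -0.27 (armadillo over platypus). Upper-quartile scaling shifts them by -0.13, -0.45 and -0.32. Log2 folds with the pseudocount moved by other amounts. With median-of-ratios scaling the collagen median went from -1.30 to -1.40 for dog over armadillo and from -0.53 to -0.63 for dog over platypus. For armadillo over platypus it went from 1.95 to 1.97. The summed log2 ratios kept their sign under both scalings and with the other dog names added. The median log2 folds kept theirs under the alternatives run on them, all but the 2-fold limit, except that the median of dog over platypus became 0 with the other dog names added. The log2 ratios of summed CPM, with median-of-ratios and then upper-quartile scaling, were -3.91 and -3.72 (fibrillar), -3.54 and -3.34 (FACIT) and 0.41 and 0.60 (other) for dog over armadillo. They were 0.58 and 0.73 (fibrillar), -3.57 and -3.43 (FACIT) and -0.98 and -0.84 (other) for dog over platypus. For armadillo over platypus they were 2.66 and 2.61 (fibrillar), 5.79 and 5.74 (basement membrane), 2.19 and 2.14 (FACIT) and 0.81 and 0.76 (other). With the other dog names added, the fibrillar ratio was -1.91 for dog over armadillo and 1.08 for dog over platypus, and that of the other collagens -0.30 for dog over platypus. Basement membrane sums could not be had for dog, where no such gene is listed by symbol.

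In dog against platypus, 5 of 19 collagens were higher in platypus with either scaling and with a 2-fold limit. Of all genes, 13.5% (median-of-ratios), 12.6% (upper-quartile) and 16.4% (2-fold limit) were. Without genes at 0 it was 1 of 11 collagens, beside 13.3% of all genes. With the other names 6 of 23 were higher in dog, beside 32.0%. Where dog and armadillo both had to reach 2 CPM, 0 of 7 collagens were higher in dog and 4 in armadillo. Of all genes, 13.3% and 9.72% were. For dog against platypus 1 of 9 was then higher in dog and 1 in platypus, beside 25.9% and 11.1% of all genes. For armadillo against platypus 5 of 9 were higher in armadillo and 0 in platypus, beside 22.9% and 14.5%. This filter removes genes low in either library. The median log2 folds for a pseudocount of 0.1 CPM, 2 CPM in both libraries and genes at 0 left out were -2.06, -2.45 and -1.84 for dog over armadillo, -0.85, -0.84 and -0.84 for dog over platypus, and 4.61, 4.69 and 3.30 for armadillo over platypus. The reads of all listed members, divided by the reads of genes listed in all 3 tables, a total that does not hold all of those members, came to 0.448% in dog, 5.50% in armadillo and 0.905% in platypus. Over collagens in all 3 tables they were 0.0873%, 0.844% and 0.0420%, and the dog share with other names was 0.537%. No paired analysis was possible because each species has 1 library. The scalings applied to the enzyme and receptor lists after seeing the data moved the receptor counts of dog against armadillo. Of 5 receptors, 0 were then higher and 2 lower in dog with median-of-ratios scaling, beside 9.76% and 15.2% of all genes. With upper-quartile scaling 1 was higher and 2 lower, beside 11.3% and 13.9%. The platypus library is the shallowest, and a count of 0 there allows up to 1.34 CPM.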
